A study of Mus musculus with 9 samples.

Results

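The genes described here are the sirtuins Sirt1 to Sirt7 with Nampt, Cd38 and Parp1, which make or use nicotinamide adenine dinucleotide (NAD). They were taken by name from an array study of kidney aging, through probe sets that carried exactly 1 gene symbol in the annotation (the brightest one where a gene had several). Of the 10 genes named, 9 had such a probe set, among 19938 genes in all. Cd38, an ecto-enzyme that splits NAD, had none under its symbol and was not analysed here. Each of the other 9 genes was measured by a single probe set.

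Whole kidneys came from wild type female mice of a mixed FVB/C57BL6 background, 4 of them killed at 14 weeks and 5 at 96 weeks of age. The labels name no treatment, and age is the only label in which the groups differ. Labelled cDNA made from the RNA of each mouse was hybridised to 1 Affymetrix Mouse Gene ST array. The deposited values are log2 expression after the robust multi-array average (RMA), so that a difference of 1 is a doubling. Values of different genes come from different probes and are not compared as amounts of RNA. As a check of the tissue label, 6 markers of the proximal tubule, Lrp2 and Slc34a1 among them, were looked up, and their lowest percentile was 90.8, a rank of probe signal that does not order the genes by their RNA. A gene is said to pass, to rise or to fall where its p from limma, adjusted over all genes, was under 0.05. These p-values set the age difference against the spread between the mice used here, which limma estimates partly from all genes. Of 8 plasma and B cell markers 7 were measured, all with a higher mean at 96 weeks, and Jchain passed. In whole kidney, fewer cells of a type and less RNA per cell cannot be told apart.

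Sirtuins are enzymes that remove acetyl and other acyl groups from proteins and consume a molecule of NAD each time, so that their activity follows the supply of NAD as well as their own amount. Sirt1, Sirt6 and Sirt7 act mainly in the nucleus, Sirt7 in the nucleolus in particular, Sirt2 mainly in the cytosol, and Sirt3, Sirt4 and Sirt5 in mitochondria, with which proximal tubule cells are densely packed. Nampt is the rate-limiting enzyme that salvages nicotinamide into NAD, whereas Parp1, which marks DNA breaks with chains of ADP-ribose, and Cd38 use NAD up. The arrays report transcripts, not enzyme activity or NAD itself.

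To place the genes that separated the ages on the genome, the promoter windows of Sirt7 and Parp1 are shown with that of Nampt, a known target of the circadian clock. They run from 250 bases before to 50 bases after the start of the gene in RefSeq (GRCm38.p6), at chr11:120624965-120625264 on the minus strand for Sirt7, chr1:180568641-180568940 on the plus strand for Parp1 and chr12:32820085-32820384 on the plus strand for Nampt. Capitals mark CCGGAAG, the core that many ETS factors bind, or CACGTG, the E-box of clock factors, both searched on either strand and chosen after the expression values were known. The sequences read 5′ to 3′ along the strand of the gene.
Sirt7: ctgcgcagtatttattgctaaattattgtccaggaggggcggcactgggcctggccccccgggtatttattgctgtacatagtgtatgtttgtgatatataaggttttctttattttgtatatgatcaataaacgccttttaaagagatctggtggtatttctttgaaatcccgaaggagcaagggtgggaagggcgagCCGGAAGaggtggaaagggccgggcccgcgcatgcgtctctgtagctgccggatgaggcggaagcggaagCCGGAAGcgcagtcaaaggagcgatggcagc
Parp1: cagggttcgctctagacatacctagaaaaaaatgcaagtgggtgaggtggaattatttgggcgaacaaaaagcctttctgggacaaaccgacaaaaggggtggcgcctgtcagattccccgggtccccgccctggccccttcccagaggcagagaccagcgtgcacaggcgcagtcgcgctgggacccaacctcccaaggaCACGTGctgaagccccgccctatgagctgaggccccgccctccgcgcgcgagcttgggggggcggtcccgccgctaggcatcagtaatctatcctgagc
Nampt: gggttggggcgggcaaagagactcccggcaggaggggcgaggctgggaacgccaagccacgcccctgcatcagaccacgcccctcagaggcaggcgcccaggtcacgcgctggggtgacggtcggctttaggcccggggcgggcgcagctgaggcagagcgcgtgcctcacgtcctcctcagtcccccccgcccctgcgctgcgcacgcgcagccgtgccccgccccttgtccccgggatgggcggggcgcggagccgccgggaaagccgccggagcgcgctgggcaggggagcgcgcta
The Sirt7 window holds CCGGAAG 2 times, starting 51 bases before and 19 bases after the gene start. The Parp1 window holds 1 E-box, and the Nampt window shows neither motif. Among the other members, Sirt1 has 2 E-boxes, and Sirt3 and Sirt6 have the ETS core in 1 window each. Of 32851 windows of 300 bases in the RefSeq table, 8.86% hold CCGGAAG or its reverse complement and 7.15% hold CACGTG. A match describes the sequence and does not show that a factor binds.

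Sirt7, the nucleolar sirtuin that acts on ribosomal DNA chromatin and on acetyl and other acyl marks of histones, was higher in old kidneys. Its log2 expression was 7.41, 7.47, 7.46 and 7.37 in replicates 1 to 4 at 14 weeks and 7.86, 7.70, 7.70, 7.72 and 7.87 in replicates 1 to 5 at 96 weeks. The lowest old kidney thus lay above the highest young one, and the groups did not overlap. The mean rose from 7.43 ± 0.05 (SD, n = 4) to 7.77 ± 0.09 (SD, n = 5), a log2 fold change of 0.34 (standard error 0.056, 95% interval 0.22 to 0.47), or 1.27-fold. Sirt7 passed across all genes (limma adjusted p = 0.0099), and an exact two-sided permutation test over the 9 arrays gave p = 0.0079, the smallest that these group sizes allow. It was the only one of the 9 members at an adjusted p under 0.05, where 4.31% of all genes were higher and 2.4% lower at 96 weeks (6.72% in either direction). After a repeated quantile normalization 53% of all calls were higher, against 64.2% in the deposited values. Markers of macrophages and of plasma and B cells also had higher means at 96 weeks, and their part in the Sirt7 values was not tested.

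Across the 9 arrays the genes whose profile was most like that of Sirt7 were Taf10, a subunit of the general transcription factor TFIID (Pearson's r 0.98), Prelid1 (0.98) and Rtraf (0.97). Their log2 fold changes were 0.31, 0.40 and 0.33. These coefficients describe a search over all genes in which the 2 ages form separate clusters, and no test was made of them.

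**Figure D1:**
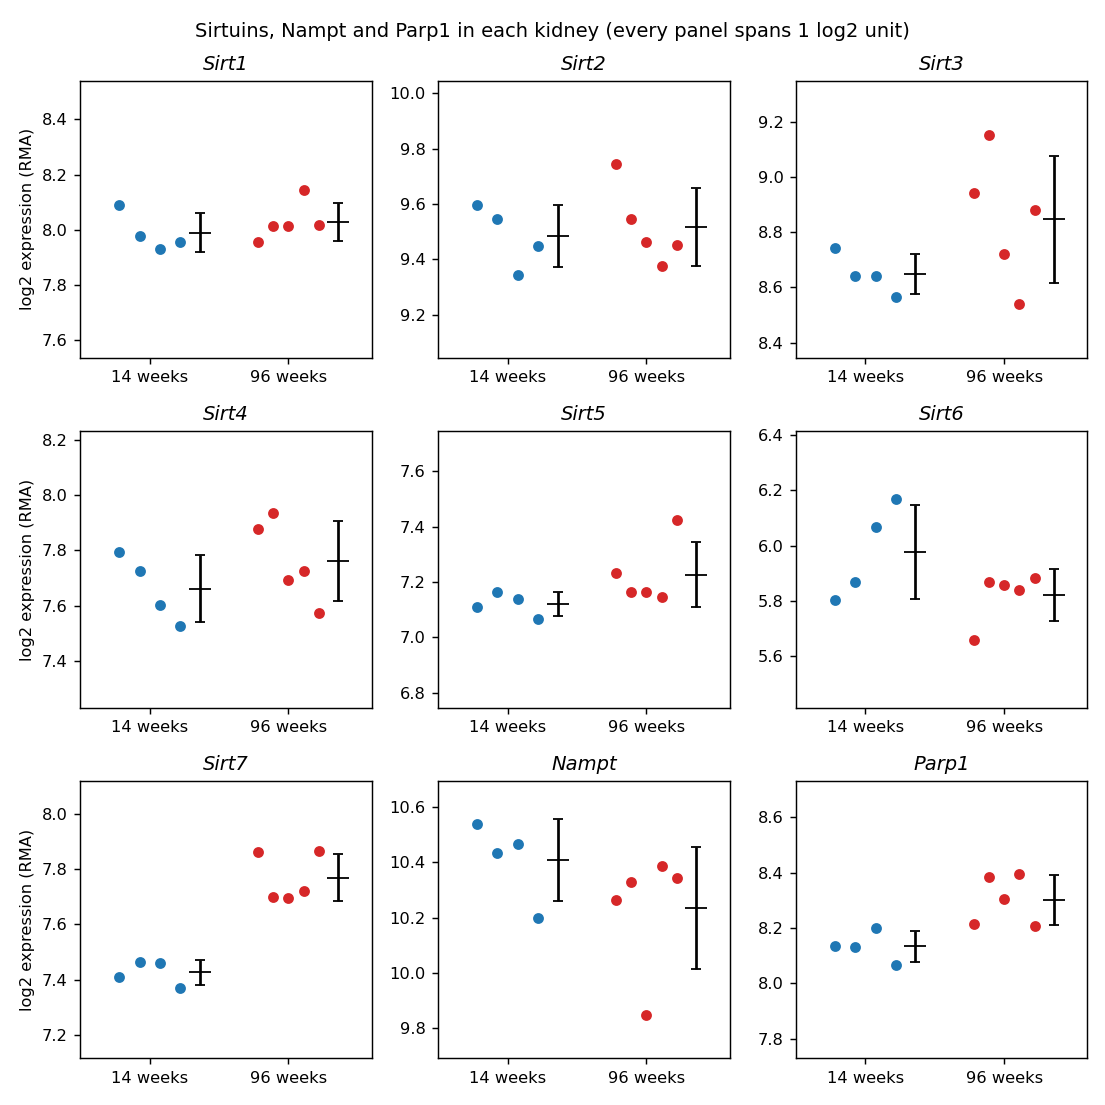
RMA log2 expression of the 9 measured genes in the kidneys of 4 mice at 14 weeks (blue) and 5 mice at 96 weeks (red). Points are mice in the order of their replicate numbers, the black bar is the mean with 1 SD, and every panel spans 1 log2 unit. Old and young kidneys separate for Sirt7 and narrowly for Parp1, while replicate 3 at 96 weeks stands low for Nampt at 9.85.

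Parp1 also had higher values in every old kidney, by a smaller amount. It measured 8.14, 8.13, 8.20 and 8.07 in the young kidneys and 8.21, 8.38, 8.31, 8.40 and 8.21 in the old ones. The groups did not overlap, but the highest young value (8.201) and the lowest old value (8.207) lay close together. The log2 fold change was 0.17 (standard error 0.058, 95% interval 0.04 to 0.30) and did not pass across all genes (limma adjusted p = 0.10). An exact two-sided permutation test gave p = 0.032 before any adjustment. Sirt7 and Parp1 were the 2 of 9 members with no overlap, both upwards, where 7.49% of all genes lay higher and 5.79% lower without overlap. They were also the 2 members at an unadjusted p under 0.05, which 13.3% of all genes met upwards and 15.3% downwards (28.5% together). After a repeated quantile normalization the difference of Parp1 was 0.10 (limma adjusted p = 0.31). Its closest profiles over the 9 arrays were those of Procr (Pearson's r 0.97), the receptor of protein C on endothelium, Snd1 (0.96) and Leprotl1 (0.95).

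The remaining nuclear sirtuins did not pass. Sirt1, the best studied deacetylase of the family, ranged from 7.93 to 8.09 in young and from 7.96 to 8.14 in old kidneys. Its log2 fold change was 0.04 (95% interval -0.08 to 0.16, limma adjusted p = 0.65), and the sign turned after a repeated quantile normalization (-0.03). Leaving out the highest old kidney (replicate 4) gave 0.0106. Leaving out young replicate 3 gave 0.0205, and leaving out young replicate 1 gave 0.0735. The interval limits any rise of Sirt1 to well below the 1.5-fold threshold of the study's methods. Sirt6, which serves telomere chromatin and DNA repair, measured 5.80, 5.87, 6.07 and 6.17 in young kidneys and 5.66, 5.87, 5.86, 5.84 and 5.88 in old ones. Young replicates 3 and 4 were above all old kidneys, and replicates 1 and 2 lay within their range. Its log2 fold change was -0.16 (standard error 0.083, 95% interval -0.34 to 0.03, limma adjusted p = 0.23). Without replicate 4 at 14 weeks the difference was -0.092 (limma adjusted p = 0.49). Sirt2, a tubulin deacetylase of the cytosol, ranged from 9.34 to 9.59 and from 9.38 to 9.74, with a log2 fold change of 0.03 (95% interval -0.15 to 0.21, limma adjusted p = 0.81) whose sign turned under both rescalings of the arrays (-0.04 each), without replicate 3 at 14 weeks (-0.0133) and without replicate 1 at 96 weeks (-0.0242).

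Of the mitochondrial sirtuins, Sirt3 differed most and varied most among the old mice. Sirt3, the main deacetylase of the mitochondrial matrix, measured 8.74, 8.64, 8.64 and 8.57 at 14 weeks and 8.94, 9.15, 8.72, 8.54 and 8.88 at 96 weeks. Replicates 1, 2 and 5 at 96 weeks lay above all young kidneys, replicate 3 lay among them and replicate 4 lay below all of them. The SD was 0.23 at 96 weeks and 0.07 at 14 weeks, and the log2 fold change was 0.20 (standard error 0.11, 95% interval -0.04 to 0.44, limma adjusted p = 0.24). Replicates 3 and 4 were also the old kidneys with the highest mean of 11 macrophage and dendritic cell markers, at 0.67 and 0.87 above the gene means against -0.20 to 0.10 in the other old kidneys. The young kidneys lay between -0.41 and -0.29 on this scale, and all 11 markers had higher means at 96 weeks, of which Csf1r and Tyrobp (2 of 11) passed. Other immune lists ordered the old kidneys differently. Replicate 1 lay above replicate 3 in the mean of 9 T and NK cell markers (0.56 against 0.10) and of 7 plasma and B cell markers (0.90 against 0.63). Replicate 4 was highest in both (1.32 and 1.55). Of the 9 T and NK cell markers 7 had a higher mean at 96 weeks and 0 passed. Replicates 3 and 4 also had the lowest means of the old kidneys for 6 proximal tubule markers (-0.06 and -0.13, against 0.02 to 0.21). The same held for 6 thick limb and collecting duct markers (-0.15 and -0.08, against 0.03 to 0.17). The part of any of these cells in the Sirt3 values was not tested. Replicates 3 and 4 held the lowest Sirt3 values of the old kidneys. Leaving out both thus had to enlarge the difference (0.34, limma adjusted p = 0.045), and this gives no support to a rise. Without replicate 2 at 96 weeks, the highest, the difference was 0.12 (limma adjusted p = 0.38).

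Sirt4, which restrains glutamate dehydrogenase, ranged from 7.53 to 7.79 in young and from 7.57 to 7.94 in old kidneys, with a log2 fold change of 0.10 (95% interval -0.09 to 0.29, limma adjusted p = 0.44) that was 0.054 without replicate 4 at 14 weeks and 0.056 without replicate 2 at 96 weeks. Sirt5, a desuccinylase and demalonylase, ranged from 7.07 to 7.17 and from 7.15 to 7.43, with a log2 fold change of 0.11 (95% interval -0.04 to 0.25, limma adjusted p = 0.29). Replicate 5 at 96 weeks held the highest Sirt5 value, and without it the difference was 0.0575 (limma adjusted p = 0.46). For Sirt5, 3 arrays shared the value 7.165, which is 14 weeks replicate 2 and 96 weeks replicates 2 and 3. The groups of both genes overlapped.

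Nampt did not pass, with a lower mean in the old kidneys. The young kidneys measured 10.54, 10.43, 10.46 and 10.20 and the old ones 10.26, 10.33, 9.85, 10.39 and 10.34. Young replicates 1 to 3 lay above all old kidneys, while replicate 4 lay below 4 of them. The log2 fold change was -0.17 (standard error 0.11, 95% interval -0.43 to 0.08, limma adjusted p = 0.32), and it was -0.08 without replicate 3 at 96 weeks. Nampt had the widest spread within the age groups of the 9 members (SD 0.193) and Sirt1 the narrowest (SD 0.070), against a median of 0.114 over all genes.

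**Figure D2:**
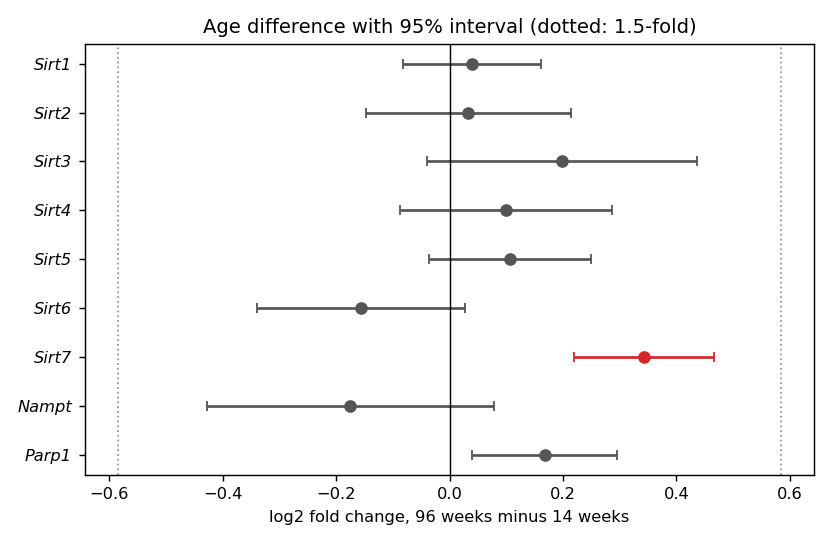
Log2 fold change (96 weeks minus 14 weeks) of the 9 measured genes with the 95% interval from limma. The interval of Sirt7 (red, adjusted p under 0.05) runs from 0.22 to 0.47, that of Parp1 also lies above 0 without passing after adjustment, and no interval reaches the dotted lines at 1.5-fold.

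Seen together, 7 of 9 members had a higher mean at 96 weeks, where 43.4% of all genes did, and 5 of 9 did after a repeated quantile normalization or cyclic loess between arrays. The median log2 fold change of the members was 0.10, that of all genes -0.03 and that of the genes kept by the filter 0.01. None of the 9 reached 1.5-fold with an unadjusted p under 0.05 in limma or by the methods' t-test, the thresholds of the study's methods, which 1.6% of all genes passed in limma.

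Wider lists of NAD metabolism and sirtuin function named 79 further genes, of which 75 were measured. At an adjusted p under 0.05 from limma 3 of them were higher (4%) and 4 lower (5.33%), shares to be read against 4.31% and 2.4% of all genes. At an unadjusted p under 0.05, 12 of 75 were higher and 12 lower, where 13.3% of all genes were higher and 15.3% lower. The median log2 fold change of the 75 genes was 0.03. Each of these 7 calls was lost by the methods' t-test and in at least 1 setting that leaves out an array.

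No gene of NAD salvage passed. All 6 genes of the salvage list, Nampt among them, were measured, and 5 had a lower mean at 96 weeks. The median log2 fold change was -0.19, against -0.03 over all genes, of which 43.4% had a higher mean. At an unadjusted p under 0.05 from limma 3 were lower, as were 15.3% of all genes. They were the nicotinamide riboside kinases Nmrk2 (-0.21, adjusted p = 0.063) and Nmrk1 (-0.28, adjusted p = 0.12), and the adenylyltransferase Nmnat2 (-0.24, adjusted p = 0.098). Nmrk1 is named because it completes this count. Nmrk2 was dim, at percentile 24.4 of signal, and is left out where genes under the 30th percentile are removed. The median log2 fold change of the genes kept by that filter was 0.01, against -0.03 over all genes. The part of dim signal in the Nmrk2 value and in the list median was not tested. Nmnat2, which is known from axons, measured 6.13 to 6.31 in young and 5.71 to 6.08 in old kidneys, with no overlap. Of all genes 5.79% lay lower without overlap.

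Of 11 genes on the routes that make NAD from nicotinate or from tryptophan, or on a branch leading away from them (Acmsd), none passed. Of the 11 genes 4 had a higher mean at 96 weeks. Qprt, which turns quinolinate into nicotinate mononucleotide at the end of the tryptophan route, had a log2 fold change of 0.33 (limma adjusted p = 0.056). Qprt measured 8.55, 8.86, 8.60 and 8.62 in young and 9.08, 9.07, 9.06, 8.71 and 9.02 in old kidneys, so that 4 of 5 old kidneys lay above all young ones and replicate 4 lay among them. Ido2, which opens the tryptophan ring, had a log2 fold change of -0.27 (limma adjusted p = 0.065). Unadjusted, Kynu was the other gene under 0.05 (-0.18, limma adjusted p = 0.12), and it is named to complete the count. That count was 1 higher and 2 lower, where 13.3% of all genes were higher and 15.3% lower at this threshold.

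Among 17 measured glycohydrolases and ADP-ribosyl transferases, which include Parp1, Zc3hav1 was higher. Zc3hav1, an antiviral protein of the PARP family that is itself inactive as a transferase, rose by 0.36 (standard error 0.093, limma adjusted p = 0.049). It lay between 7.26 and 7.48 in young and between 7.60 and 8.05 in old kidneys, with the highest value in replicate 4. This call was lost under both rescalings of the arrays and without any 1 array except replicate 4 at 96 weeks (adjusted p from limma 0.055 to 0.11). Bst1, the relative of Cd38 on the same list, had a log2 fold change of 0.16 (limma adjusted p = 0.20).

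Of the 7 measured genes that remove ADP-ribose none passed, and 5 had a higher mean. The ADP-ribose hydrolases Nudt9 and Nudt5 had log2 fold changes of 0.24 (limma adjusted p = 0.14) and 0.22 (limma adjusted p = 0.16). Of the 7 genes of NAD phosphorylation, repair and transport, Nudt12, a peroxisomal hydrolase of NADH, fell by 0.31 on the log2 scale with a standard error of 0.071 (limma adjusted p = 0.032), from 7.83 to 8.09 in young to 7.59 to 7.83 in old kidneys. Nudt12 no longer passed without any 1 of replicates 1, 2 or 3 at 14 weeks or replicates 1, 3, 4 or 5 at 96 weeks (adjusted p from limma 0.052 to 0.078).

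Among the 75 pathway genes the largest differences belonged to carriers of NAD precursors at the tubule. Slc22a13, a transporter of nicotinate and urate, rose from 8.67 ± 0.10 (SD, n = 4) to 9.31 ± 0.25 (SD, n = 5), with every old kidney above every young one (log2 fold change 0.63, limma adjusted p = 0.016). Slc5a8, a sodium-coupled carrier of lactate that also takes up nicotinate, measured 10.40, 10.47, 10.40 and 10.06 in young and 9.91, 10.09, 9.44, 9.34 and 9.81 in old kidneys. Its log2 fold change was -0.62 (standard error 0.15, limma adjusted p = 0.042), and replicates 3 and 4 were the lowest old kidneys, without which it was -0.40 (limma adjusted p = 0.072). Slc22a13 missed the threshold without replicate 4 at 14 weeks (limma adjusted p = 0.052). Slc5a8 missed it without any 1 array other than replicate 2 at 96 weeks (adjusted p from limma 0.0575 to 0.103). These were the only 2 of the 75 genes past 1.5-fold with an unadjusted p under 0.05. Nnmt, which methylates nicotinamide for excretion, had a log2 fold change of -0.05 (limma adjusted p = 0.47).

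**Figure D3:**
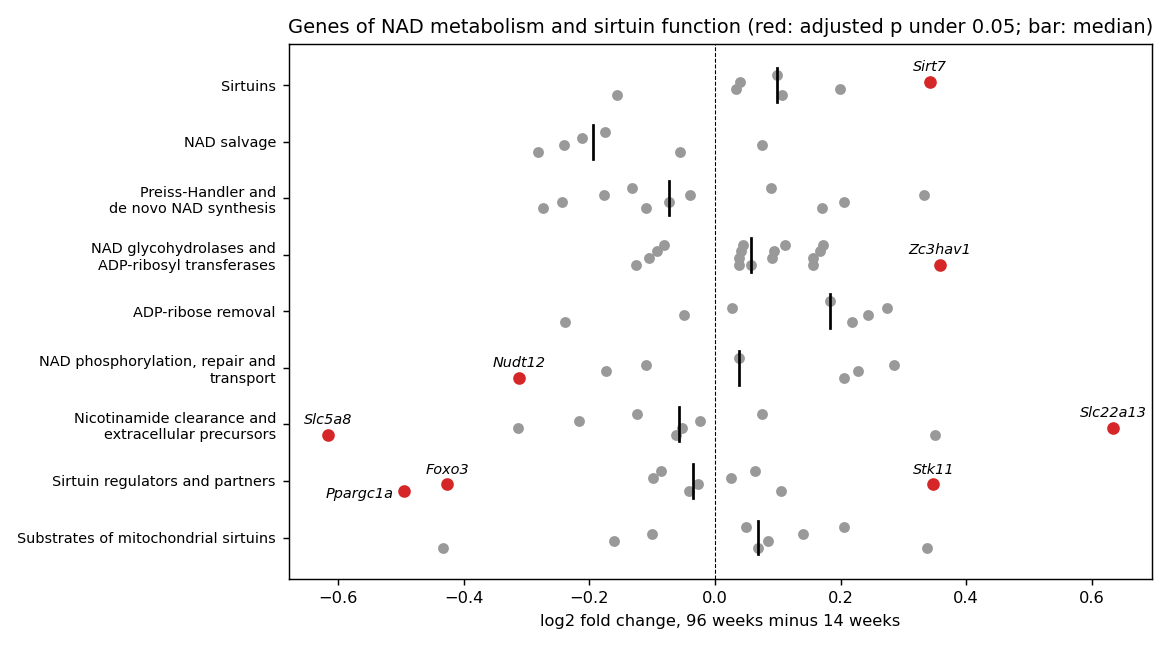
Age difference on the log2 scale (old minus young) for each gene measured in 9 lists, 1 row per list. Red marks genes with a limma adjusted p under 0.05, grey all others, and a black bar the median of the list. List medians lie between -0.19 for NAD salvage and 0.18 for ADP-ribose removal, and Slc5a8 and Slc22a13 lie farthest from 0.

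Among 10 regulators and partners of sirtuins, Ppargc1a and Foxo3 fell and Stk11 rose. Ppargc1a, the coactivator of mitochondrial biogenesis that Sirt1 deacetylates, measured 11.21, 11.22, 11.08 and 11.36 in young and 10.92, 10.75, 10.44, 10.71 and 10.80 in old kidneys. Every old kidney lay below every young one (log2 fold change -0.49, standard error 0.094, limma adjusted p = 0.017), and the call was lost only without replicate 4 at 14 weeks (adjusted p = 0.055) among the settings that leave out 1 array. Foxo3, a stress response transcription factor and sirtuin substrate, measured 8.18 to 8.62 in young and 7.87 to 8.20 in old kidneys, where young replicate 2 lay below the highest old kidney. Its log2 fold change was -0.43 (limma adjusted p = 0.031). Foxo3 missed the threshold without any 1 array other than replicate 2 at 14 weeks or replicate 1 at 96 weeks (adjusted p from limma 0.052 to 0.088). Stk11, the kinase upstream of AMP-activated protein kinase, had a log2 fold change of 0.35 (limma adjusted p = 0.040) with no overlap. It missed the threshold under both rescalings and without any 1 array other than replicates 4 or 5 at 96 weeks (adjusted p from limma 0.057 to 0.11). The Sirt1 inhibitor Ccar2 and its activator Rps19bp1 had log2 fold changes of 0.03 (limma adjusted p = 0.80) and 0.11 (limma adjusted p = 0.26).

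None of 9 measured substrates of mitochondrial sirtuins passed in limma or by the methods' t-test. At an unadjusted p under 0.05 in limma, which 28.5% of all genes met, there were 2 of the 9. They were malonyl-CoA decarboxylase Mlycd (0.34, limma adjusted p = 0.082) and the mitochondrial acetyl-CoA synthetase Acss1 (-0.43, limma adjusted p = 0.084). Neither gene's groups overlapped, where 7.49% of all genes lay higher and 5.79% lower without overlap. For Mlycd the highest young value (7.094) and the lowest old value (7.097) lay close together. Sirtuins act on these proteins, and the transcripts do not report acylation.

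The circadian clock, which drives Nampt through E-boxes, differed between the ages in its own genes. Of 10 clock genes, Arntl was higher (log2 fold change 1.16, limma adjusted p = 0.044), and Dbp (-0.98, limma adjusted p = 0.0077) and Per3 (-0.84, limma adjusted p = 0.038) were lower. Of all genes 4.31% were higher and 2.4% lower. Nr1d1 had the largest difference of the list (-1.23, limma adjusted p = 0.056) and did not pass, nor did Cry1 (0.80, limma adjusted p = 0.076). Nr1d2 (-0.86, limma adjusted p = 0.093), Per1 (-0.39, limma adjusted p = 0.13) and Per2 (-0.37, limma adjusted p = 0.085) did not pass either. At an unadjusted p under 0.05 from limma 2 of the 10 were higher and 6 lower, where 13.3% of all genes were higher and 15.3% lower. No source used here gives the hour of collection, and its part in these values was not tested. Arntl and Per3 missed the threshold without any 1 array other than replicate 1 at 96 weeks (limma adjusted p 0.0538 to 0.106 and 0.0601 to 0.0933), while Dbp passed without each of the 9 arrays.

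**Figure D4:**
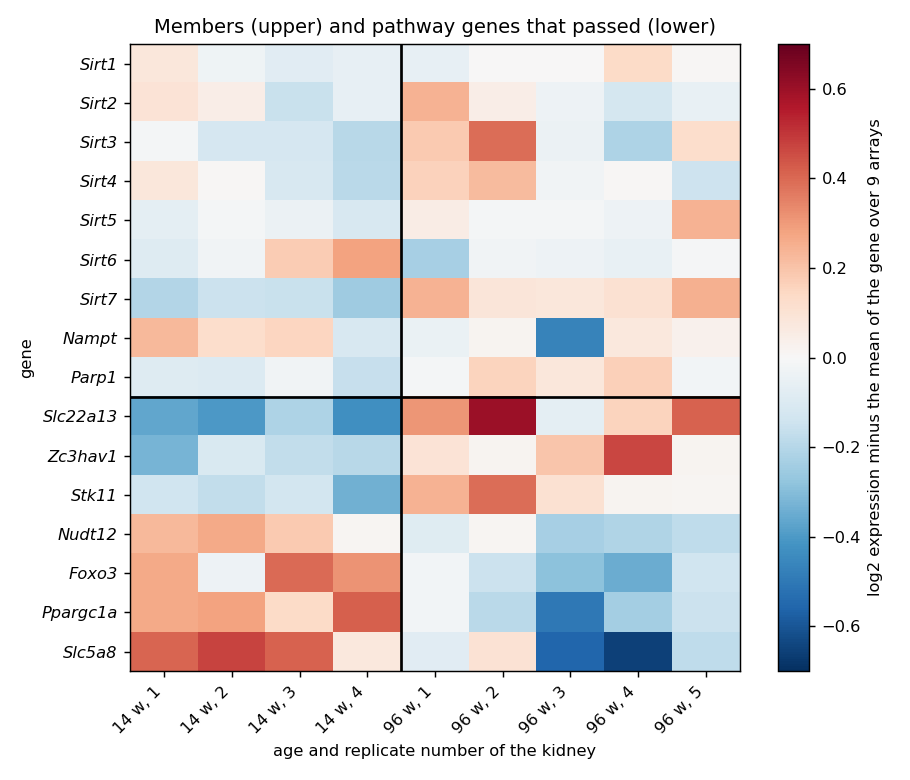
Log2 expression of the 9 members (upper rows) and of the 7 pathway genes that passed (lower rows) in each kidney, as the difference from the mean of the gene over the 9 arrays. Columns are the 4 kidneys at 14 weeks and the 5 at 96 weeks. Sirt7 is below its mean in all young and above it in all old kidneys, whereas the other sirtuins show no such split.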

How the data were processed

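RNA of whole kidneys from 9 mice was reverse transcribed and amplified. The cDNA was labelled with biotin and hybridised to 1 array for each mouse. The authors ran RMA with quantile normalization in Affymetrix Power Tools (release 1.12.0) and deposited log2 values for 35557 probe sets. No source used here gives the genome build of the array annotation. Although the methods name 5 mice per age, 4 arrays at 14 weeks and 5 at 96 weeks were analysed. Probe sets with 1 gene symbol numbered 21789, against 1621 with several and 12147 with none, and gave 19938 genes. The ages were compared by lmFit and eBayes of limma (3.58.1, R 4.3.3), with Benjamini-Hochberg adjustment over all genes, and members also by the exact permutation test over 126 splits. The number of arrays limits the precision.

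The members, lists and tests were chosen with earlier results of these data known. Named were all members, the genes of each list at an adjusted p under 0.05 or, with none, the 2 with the smallest p, and the 3 genes most like Sirt7 and Parp1. Bst1, Nnmt, Ccar2, Rps19bp1, Nmrk1, Kynu, Acmsd, Nr1d1, Nr1d2, Per1, Per2 and Cry1 were named after their values were seen. The 19 alternatives were the methods' t-test, array weights, removal of genes under the 30th percentile of signal, repeated quantile normalization, cyclic loess, the mean of probe sets, a replicate block, trended and robust eBayes, and leaving out each array or replicates 3 and 4 at 96 weeks. In a simulation with 200 of 19938 genes changed, limma recovered 31.3% of 67 genes shifted by 0.3 (log2), 79.1% of 67 shifted by 0.5 and 98.5% of 66 shifted by 1. In the data 1339 genes passed. Fewer changed genes make the adjusted threshold stricter, so these rates can be too low for the data. Promoters were searched in Python 3.11.15.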

Additional observations from a re-analysis of the deposited data

Results flagged for a closer look

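Among 18 checks of the 9 members in the 2 age groups, 2 kidneys stood apart from their group, where chance alone marks about 1 in 20. Nampt was 9.85 in replicate 3 at 96 weeks, and the nearest of the other old kidneys measured 10.26. Sirt6 was 5.66 in replicate 1 at 96 weeks, and the nearest of the other old kidneys measured 5.84.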

How the results depend on the processing

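Sirt7 kept its direction in all 19 alternatives (0.29 to 0.38, and 0.32 to 0.36 without each array) and passed in 18, with adjusted p from 0.0060 to 0.067. The replicate block ended its call (0.32), which left 0 members higher by limma adjusted p and 3 at an unadjusted p under 0.05. Same-numbered arrays did not deviate together (correlations -0.04 to 0.08, and 1 of 4 numbers had its own number as best partner). With 4 pairs this shows no pairing by number but cannot exclude one, so the block remains an alternative. Leaving out replicates 3 and 4 at 96 weeks made 2 members higher, the added one being Sirt3 (0.34), whose lowest old values these replicates hold, so that the added call is no evidence of a rise. Sirt1 changed sign after quantile normalization (-0.0272) and cyclic loess (-0.0033), and Sirt2 after quantile normalization (-0.0352), cyclic loess (-0.0386) and without single arrays (-0.0242 to 0.0702). Of the other 75 pathway genes, 3 were higher and 4 lower in limma over all arrays. The methods' t-test gave 0 and 0 (9 and 11 at an unadjusted p under 0.05), the replicate block 0 and 2 (14 and 11 at an unadjusted p under 0.05), and leaving out replicates 3 and 4 gave 9 and 1. A filter on dim genes gave 5 higher, and quantile normalization and cyclic loess 1 each. Without each array 0 to 4 were higher and 1 to 3 lower. Of all genes, 860 were higher and 479 lower, a split of 64.2% higher. The counts were 273 and 94 by the methods' t-test, 533 and 473 after quantile normalization (53% higher), 279 and 89 with the block, 739 and 286 without replicates 3 and 4, and 374 to 751 and 154 to 384 without each array. At 1.5-fold and an unadjusted p under 0.05 the t-test passed 257 genes and limma 319. The causes were not tested. In the simulation, whose adjusted threshold was stricter, a rise of 0.3 was often missed. Members that did not pass are not shown to be equal.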
